A study of Mus musculus with 23 samples.

Results

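Mbl1, Mbl2, Masp1 and Masp2 encode the mannose-binding lectins A and C of the mouse and the serine proteases that travel with them in plasma. They were taken as the features whose listed gene symbol is one of these 4 names, and each name had 1 feature, so 4 of the 18688 features with a listed gene are described. The names were chosen by symbol with earlier log2 ratios of these same mice known, so the values are given as a description.

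Mannose-binding lectins are secreted collagen-like proteins, made mainly by hepatocytes, that bind sugars on the surface of microbes and damaged cells. The bound lectin activates its proteases. MASP-2 cleaves the complement proteins C4 and C2, MASP-1 activates MASP-2 and also cleaves C2, and this route into the complement system is called the lectin pathway. In humans the lectin is known as a modest acute phase protein, and the study asked whether particles in the lung evoke an acute phase response in the liver.

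Liver RNA of 23 female C57BL/6 mice, aged 12 to 13 weeks by the labels, was hybridised to 1 oligonucleotide array per mouse. The CB group (8 mice) inhaled carbon black, Printex 90, at 20 mg/m3, the DEP group (7 mice) inhaled diesel exhaust particles, the standard material NIST 2975, at the same concentration, and the Air group (8 mice) inhaled filtered air. All groups were exposed for 90 min on each of 4 days, and the labels place the collection of tissue 90 min after exposure, while the study's methods give a shorter time and a lower age. The mice carried no transgene or deletion by the labels, and the tissue was whole liver, so fewer cells of a type and less RNA per cell cannot be told apart. Liver RNA was labelled with Cy5 and a universal mouse reference RNA with Cy3 on every array. The log2 ratio is that of Cy5 to Cy3, and 1 unit of it is a 2-fold difference. Mice are named below by the number in their labels.

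Mbl1 lies on chromosome 14 at 41151456 to 41163904, Mbl2 on chromosome 19 at 30232906 to 30239687, Masp1 on chromosome 16 at 23451785 to 23521240 and Masp2 on chromosome 4 at 148594622 to 148615499 (GRCm38.p6). All are protein-coding genes, and they share no chromosome. The RefSeq promoter table held 3 of the 4 genes, all but Masp1. The 120 bases before the start of Mbl1 and of Mbl2, the genes of the 2 lectins, are shown because they share a run of letters close to the start. Both are on the plus strand of GRCm38.p6, at chr14:41151336-41151455 and chr19:30232808-30232927, and capitals mark the shared run.
Mbl1: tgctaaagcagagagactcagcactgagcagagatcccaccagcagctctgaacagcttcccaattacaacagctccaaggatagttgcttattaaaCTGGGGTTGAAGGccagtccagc
Mbl2: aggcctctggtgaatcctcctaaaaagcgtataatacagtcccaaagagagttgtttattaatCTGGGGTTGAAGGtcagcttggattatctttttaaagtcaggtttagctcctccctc
The shared run of 13 bases, CTGGGGTTGAAGG, ended 11 bases before the start of Mbl1 and 45 bases before that of Mbl2, as the promoter table sets the starts, and that of Mbl2 lies a little inside the gene span given above. With the 15 bases before it, it formed a block of 28 bases of which 25 were identical in both genes. Read on both strands, the run was in 3 of 32851 promoter windows of 300 bases (0.00913%), those of Mbl1, Mbl2 and Slc25a53. The Masp2 window, at chr4:148602294-148602593 and so well inside the gene span given above, did not hold it. Short motifs of liver and stress factors were searched in the same windows on both strands. The glucocorticoid receptor half-site TGTTCT was in the windows of Mbl1 and Mbl2 and in 19.0% of all windows, the HNF4 half-site CAAAGT in that of Mbl2 and in 14.4%, and the STAT motif TTCNNNGAA in that of Masp2 and in 8.30%. The HNF1 half-site GTTAAT (7.10% of all windows) and the C/EBP motif TTGNNCAA (6.40%) were in none of the 3. Such matches describe letters in a window and say nothing of binding.

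Over listed features the arrays had a median Cy5 signal of 268 to 549 in the CB group, 312 to 511 in the DEP group and 262 to 541.5 in the Air group. Between 20.5% and 40.0% of features were flagged absent in Cy5 on CB arrays, 19.2% and 37.4% on DEP arrays and 13.8% and 41.9% on Air arrays. Arrays of the same group correlated with r of 0.886 to 0.964 over features, and no 2 files were identical. The mice came from 3 rounds of exposure, with 1 CB, 1 DEP and 2 Air mice in round 1, 6, 2 and 4 in round 2, and 1, 4 and 2 in round 3. By the flags all 4 genes were detected in liver RNA: of their 92 spots, 0 were saturated and 0 were flagged absent in Cy5. In Cy3, the channel of the reference RNA, 5 were flagged absent. Relative to the array median, log2 Cy5 was as low as −0.70 for Mbl1 in Air mouse 835433 and −0.30 for Mbl2 in CB mouse 835436. Their mean ratios in the Air group were high for this array, and 1.40% to 1.94% of all features had a higher one. The mean of Mbl1 includes 3 Air spots flagged absent in Cy3.

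The Mbl1 spot was bright in Cy5 on 19 arrays and far dimmer on the other 4, where Cy3 was lower too but by less. For those 4 a failed spot and a low mRNA level cannot be told apart. The log2 ratio of Mbl1 had a lowest, median and highest value of 2.65, 4.69 and 5.05 in the CB group, 4.54, 4.75 and 5.10 in the DEP group and 0.34, 4.78 and 5.36 in the Air group. The medians of the 3 groups thus lay within 0.08 of each other, and the group ranges overlapped. The 4 low values were CB mouse 835436 at 2.65 and Air mice 442, 443 and 835433 at 1.91, 2.33 and 0.34. The other 19 livers lay between 4.54 and 5.36. The DEP group had no low value, and the low ones were those of 1 of 8 CB and 3 of 8 Air mice.

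**Figure D1:**
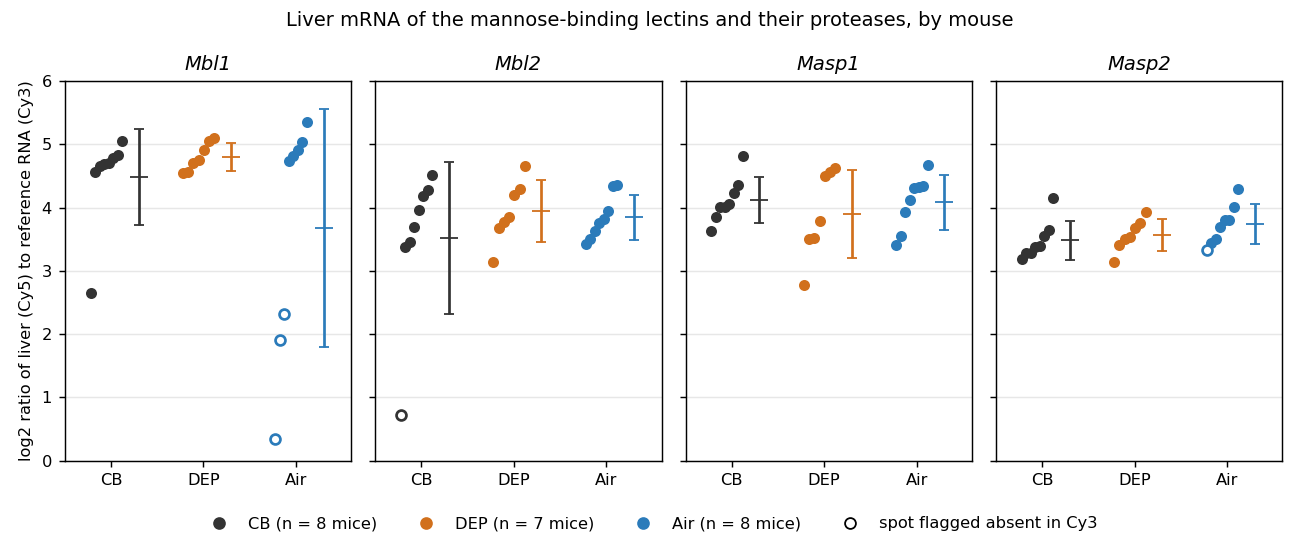
Log2 ratio of Cy5 (liver) to Cy3 (reference) for Mbl1, Mbl2, Masp1 and Masp2, with 1 point per mouse in the CB (n = 8), DEP (n = 7) and Air (n = 8) groups, open points for spots flagged absent in Cy3, and the mean with SD beside the points. The Mbl1 ratio is low for 1 CB and 3 Air mice and the Mbl2 ratio for 1 CB mouse, the one at 0.72, while Masp1 and Masp2 have no such gap.

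The low Mbl1 ratios came from spots that were dim in both channels, most of all in the liver channel. The Cy5 signal was 1344.5 in CB mouse 835436, and 558, 682 and 235 in Air mice 442, 443 and 835433, against 5117 to 19556 in the other 19 livers. The Cy3 signal of the same spots was 162 in the CB mouse and 131, 128 and 183 in the Air mice, against 213 to 443.5 in the others. Relative to the median of each array and then of all arrays, log2 Cy5 was −2.34 in the CB mouse and −3.66, −2.87 and −4.96 in the Air mice. For log2 Cy3 the values were −0.52 in the CB mouse and −1.18, −0.65 and −0.79 in the Air mice. The spots of the 3 Air mice were flagged absent in Cy3 by the authors and that of the CB mouse was not.

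The low spots came from each of the 3 rounds, 1 in round 1, 1 in round 2 and 2 in round 3. By the array numbers in the labels they came from 2 of 5 runs of consecutive arrays, with 2 low spots on the 5 arrays of each. The other 3 arrays of each of these runs had Mbl1 at 4.57 to 5.10 and 4.57 to 4.81. The array run thus moved with the low values, and its part in them was not tested.

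Drops of this kind were counted over all features, dim ones too. The limit of 1.5 was chosen after the values had been seen, and 4 arrays is the number with a low Mbl1 spot. Mbl1 thus meets the rule by choice, and the count is no test of how unusual it is. Of all 18688 features, 17 (0.091%) lay more than 1.5 below their own median log2 ratio on at least 4 arrays, and Mbl1 was the only one of the 4 genes among them. A single array had 2 to 64 such low features. The array of CB mouse 835436 had 55, of which 69.1% were flagged absent in Cy3, against 23.1% of all its features. Those of Air mice 442, 443 and 835433 had 30, 24 and 23, of which 43.3%, 62.5% and 56.5% were flagged, against 28.4%, 29.0% and 24.6% of all their features.

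**Figure D2:**
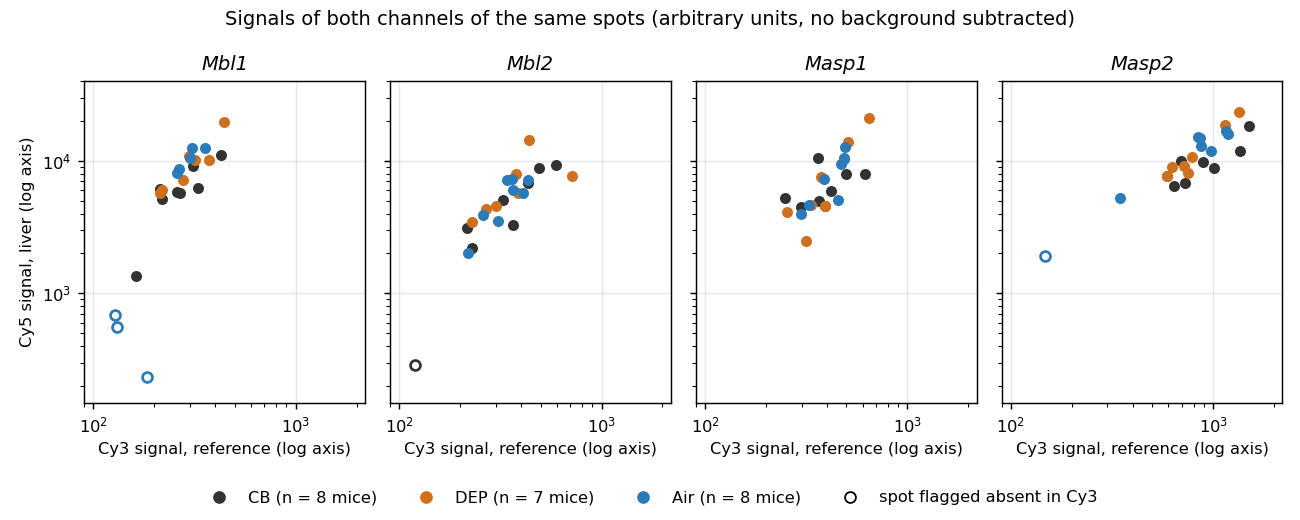
Cy5 signal of liver RNA against Cy3 signal of reference RNA for the same spots (log axes, arbitrary units), with 1 point per mouse in the CB (n = 8), DEP (n = 7) and Air (n = 8) groups and open points for spots flagged absent in Cy3. The Mbl1 spots at 235 to 1344.5 and the Mbl2 spot at 289 in Cy5 lie apart from the rest, and the open Masp2 point, with 1903.5 in Cy5, is dim in both channels.

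For Mbl1 the comparison with the Air group turned on the 3 flagged Air spots. Mbl1 averaged 4.49 ± 0.76 in the CB group (SD, n = 8), 4.81 ± 0.22 in the DEP group (SD, n = 7) and 3.68 ± 1.88 in the Air group (SD, n = 8). The log2 difference was 0.81 (standard error 0.54, 95% confidence interval −0.31 to 1.92) for CB minus Air and 1.12 (standard error 0.56, −0.03 to 2.28) for DEP minus Air, comparisons that share the Air mice. With adjusted p of 0.888 and 0.997 from limma over all features, neither passed. The CB and DEP groups differed by −0.32 (standard error 0.56, −1.47 to 0.84) in log2. Without the spots flagged absent, a setting chosen after the values had been seen, 5 Air mice remained with a mean of 4.97 ± 0.24 (SD), and the differences became −0.48 for CB minus Air (standard error 0.27, −1.04 to 0.07) and −0.17 for DEP minus Air (standard error 0.28, −0.74 to 0.41). The low spot of CB mouse 835436, which was not flagged, is still in the first of these, and without this mouse as well CB minus Air was −0.22 (standard error 0.12) and CB minus DEP −0.05 (standard error 0.11). Within round 2 the differences were 0.47 for CB minus Air and 0.60 for DEP minus Air, within round 3, with 1 CB mouse, 0.07 and 2.28, and with the array run as a block 0.72 and 1.20, and with the round as a block 0.65 and 1.42. The order of the group means was DEP, CB, Air with all spots and Air, DEP, CB without the flagged ones, and neighbours in either order did not differ beyond their spread.

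Over the whole table limma called 0 of 18688 features for CB minus Air (0%), 0 for DEP minus Air (0%) and 0 for CB minus DEP (0%). Without adjustment 1110 (5.94%), 900 (4.82%) and 643 features (3.44%) had a p under 0.05. None of the 4 genes was among them in any of the 3 comparisons. The ranges of the groups overlapped for all 4 genes in all 3 comparisons, and those of 0.0589%, 0.0107% and 0.0268% of all features did not.

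Mbl2, the gene of the other lectin, had 1 low spot. Its log2 ratio had a lowest, median and highest value of 0.72, 3.83 and 4.51 in the CB group, 3.14, 3.86 and 4.66 in the DEP group and 3.42, 3.79 and 4.36 in the Air group. The low value belonged to CB mouse 835436, the CB mouse with low Mbl1, and the other 22 livers lay between 3.14 and 4.66. The Mbl2 spot of that mouse had 289 in Cy5, against 2026 to 14444 on the other arrays, and 120 in Cy3, against 216 to 715, and was flagged absent in Cy3. In Air mice 442, 443 and 835433, whose Mbl1 was low, Mbl2 was 3.82, 3.50 and 3.42, inside the range of the rest. Low spots of both lectins were thus found on 1 array and of Mbl1 alone on 3. Of these 5 spots 4 were flagged absent in Cy3, the reference channel, and none in Cy5. A failed spot and a low mRNA level cannot be told apart for them, so no mRNA level is read from them.

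Mbl2 did not differ between the groups beyond the spread of the mice. It averaged 3.52 ± 1.20 in the CB group (SD, n = 8), 3.94 ± 0.49 in the DEP group (SD, n = 7) and 3.84 ± 0.35 in the Air group (SD, n = 8). The log2 difference was −0.32 for CB minus Air (standard error 0.36, −1.06 to 0.42, adjusted p = 0.931 from limma), 0.10 for DEP minus Air (standard error 0.37, −0.66 to 0.86) and −0.42 for CB minus DEP (standard error 0.37, −1.18 to 0.34). CB mouse 835436 set the sign of the first of these: without it, CB minus Air was 0.08 and CB minus DEP −0.02. With the round as a block the 3 differences were −0.45, 0.36 and −0.80 (unadjusted p = 0.0442, adjusted p = 0.997 from limma for the last), and with the array run as a block −0.53, 0.10 and −0.63. Within round 2 they were −0.21, −0.01 and −0.20. In round 3 this mouse, with its flagged spot, is the lone CB mouse, and there DEP minus Air was 0.36.

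Masp1, whose protease activates MASP-2, spread less than the lectins with all spots, with an SD within groups of 0.50 against 1.20 for Mbl1 and 0.79 for Mbl2. Its log2 ratio had a lowest, median and highest value of 3.63, 4.04 and 4.82 in the CB group, 2.78, 3.80 and 4.63 in the DEP group and 3.41, 4.22 and 4.67 in the Air group. The lowest liver, DEP mouse 55 at 2.78, lay below the next, Air mouse 835433 at 3.41. It had 2493 in Cy5 and 314 in Cy3, a Cy3 signal inside the range of the other arrays. No Masp1 spot was flagged in either channel. Masp1 averaged 4.12 ± 0.36 in the CB group (SD, n = 8), 3.90 ± 0.70 in the DEP group (SD, n = 7) and 4.08 ± 0.43 in the Air group (SD, n = 8). The log2 difference was 0.04 for CB minus Air (standard error 0.23, −0.44 to 0.52, adjusted p = 0.989 from limma), −0.18 for DEP minus Air (standard error 0.24, −0.68 to 0.31) and 0.22 for CB minus DEP (standard error 0.24, −0.27 to 0.72). Within rounds 2 and 3 CB minus Air was −0.05 and −0.03, and DEP minus Air was −0.22 and 0.46. The signs of all 3 turned under some settings, and no order of the groups is drawn from them.

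Masp2, whose protease cleaves C4 and C2, had lower means after both particles, without passing the test. Its log2 ratio had a lowest, median and highest value of 3.19, 3.39 and 4.16 in the CB group, 3.14, 3.53 and 3.93 in the DEP group and 3.34, 3.75 and 4.29 in the Air group. It averaged 3.49 ± 0.31 in the CB group (SD, n = 8), 3.56 ± 0.26 in the DEP group (SD, n = 7) and 3.74 ± 0.31 in the Air group (SD, n = 8). The log2 difference was −0.25 for CB minus Air (standard error 0.14, −0.54 to 0.04, adjusted p = 0.873 from limma), −0.17 for DEP minus Air (standard error 0.15, −0.48 to 0.13, adjusted p = 0.997) and −0.08 for CB minus DEP (standard error 0.15, −0.38 to 0.23). None passed, and the groups overlapped. CB minus Air passed when arrays were centred on their median without loess (−0.57, adjusted p = 0.0358 from limma), where 285 features did and the median of all features was −0.11, and lay at 0.02 with the Cy5 signal alone. Within rounds 2 and 3 CB minus Air was −0.24 and −0.43, and DEP minus Air 0.15 and −0.17. With the array run as a block CB minus Air was −0.42 (standard error 0.11, unadjusted p = 0.00115, adjusted p = 0.345 from limma) and DEP minus Air −0.27 (standard error 0.12, unadjusted p = 0.0331, adjusted p = 0.997), and with the round as a block −0.23 and −0.09. The spot of Air mouse 54 was flagged absent in Cy3 at 147.5, with 1903.5 in Cy5 and a ratio of 3.34, and without it CB minus Air was −0.31 (standard error 0.14, unadjusted p = 0.0424, adjusted p = 0.736 from limma).

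**Figure D3:**
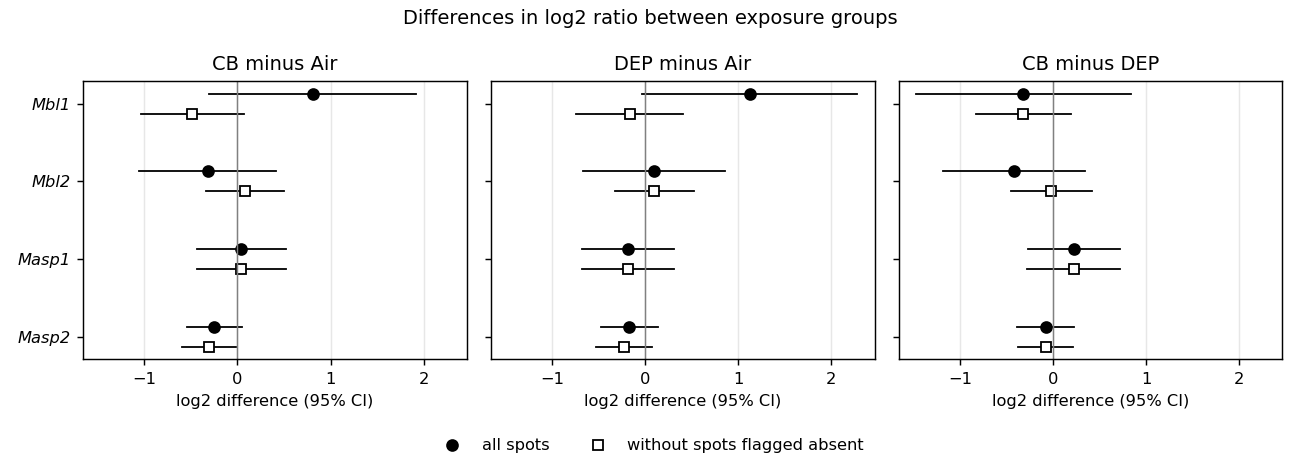
Differences in log2 ratio between the groups for the 4 genes, with 95% confidence intervals from limma, over all spots (filled circles) and without spots flagged absent in either channel (open squares). For Mbl1 the comparisons with the Air group change sign, 0.81 and −0.48 for CB minus Air and 1.12 and −0.17 for DEP minus Air, and the open square of Masp2 for CB minus Air, −0.31, has an interval that ends at −0.01.

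The spread between mice depended on the low spots. With all spots the standard deviation of the log2 ratio within groups was 1.20 for Mbl1, 0.79 for Mbl2, 0.50 for Masp1 and 0.30 for Masp2, against a median of 0.24 over all features, and 99.8%, 98.8%, 93.5% and 71.4% of all features varied less. Without the flagged spots the SD of Mbl1 was 0.76 in the CB group, which keeps mouse 835436, 0.22 in the DEP group and 0.24 in the Air group, and that of Masp2 was 0.31, 0.26 and 0.29. Mbl2 then had 0.43, 0.49 and 0.35, and Masp1, with no flagged spot, 0.36, 0.70 and 0.43. Over the 3 groups together Mbl1 thus had the highest SD of the 4 with all spots. In the Air group it had the lowest without the flagged ones. In the DEP group, where no spot was flagged, its SD was the lowest with all spots too.

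Across livers the 4 genes were positively correlated in most pairs, apart from the low Mbl1 spots. All pairs were set against each other, 6 in all. Over all 23 mice Mbl1 had r = 0.45 with Mbl2, 0.30 with Masp1 and −0.0020 with Masp2 (adjusted permutation p = 0.0822, 0.189 and 0.993), and none passed. By rank, rho was 0.66, 0.66 and 0.43 (adjusted permutation p = 0.00172, 0.00172 and 0.0412). Since the 4 low spots stand apart, no relation of Mbl1 is drawn from these values. Those that follow leave out flagged spots, a setting chosen after the values had been seen. Over mice with no flagged spot in either gene, Mbl1 and Mbl2 had r = 0.57 (n = 19, permutation p = 0.0108, adjusted 0.0216) and rho = 0.60 (permutation p = 0.00727, adjusted 0.0109), and r = 0.51 without the 2 mice farthest from the median of Mbl1. Mbl1 and Masp2 had r = 0.57 (n = 19, permutation p = 0.00692, adjusted 0.0208) and rho = 0.78 (permutation p = 0.00019, adjusted 0.00105), and r = 0.65 without the 2 farthest mice. For Mbl1 and Masp1 r was 0.45 (n = 20, permutation p = 0.0521, adjusted 0.0671) and rho 0.74 (permutation p = 0.00035, adjusted 0.00105), and r = 0.69 without the 2 farthest. CB mouse 835436, whose Mbl1 spot was not flagged, is among the mice of the pairs of Mbl1 with Masp1 and Masp2.

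Mbl2 and Masp1 were also correlated over all 23 mice, more clearly by rank. For this pair r was 0.45 (permutation p = 0.0331, adjusted 0.0822), rho was 0.70 (permutation p = 0.00032, adjusted 0.00172) and r was 0.56 without the 2 mice farthest from the median of Mbl2. Masp1 and Masp2 had r = 0.44 (permutation p = 0.0374, adjusted 0.0822) and rho = 0.52 (permutation p = 0.0124, adjusted 0.0186), and r = 0.54 without the 2 farthest. Mbl2 and Masp2 had r = 0.41 (permutation p = 0.0526, adjusted 0.0822) and rho = 0.47 (permutation p = 0.0235, adjusted 0.0282), and r = 0.39 without the 2 farthest. Over all mice the rank correlations of these 3 pairs passed after adjustment and the linear ones did not. Without flagged spots Mbl2 and Masp1 had r = 0.59 (n = 22, permutation p = 0.0034, adjusted 0.0204) and rho = 0.69 (adjusted 0.00106), and Masp1 and Masp2 r = 0.41 (n = 22, permutation p = 0.0559, adjusted 0.0671) and rho = 0.50 (adjusted 0.0222). Mbl2 and Masp2 had r = 0.31 (n = 21, permutation p = 0.175, adjusted 0.175) and rho = 0.37 (permutation p = 0.101, adjusted 0.101), so that their rank correlation no longer passed.

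The relations kept their sign within the rounds that held enough mice. Over mice with no flagged spot, r was 0.41 for Mbl1 and Mbl2, 0.56 for Mbl1 and Masp1 and 0.81 for Mbl1 and Masp2 in round 2 (n = 11, 11 and 10), and 0.46, 0.27 and 0.36 for Mbl2 and Masp1, Mbl2 and Masp2, and Masp1 and Masp2 (n = 12, 11 and 11). In round 3 it was 0.56 for Mbl1 and Masp1, 0.58 for Mbl1 and Masp2, 0.94 for Mbl2 and Masp1, 0.59 for Mbl2 and Masp2 (n = 6 each) and 0.64 for Masp1 and Masp2 (n = 7), and Mbl1 and Mbl2 shared only 5 mice there. All values of a liver share 1 array, its dyes and the reference RNA. The Cy3 signals of the same pairs, relative to the array, had r of −0.23 to 0.38. With the Cy5 signal alone, over all mice, r was 0.56 for Masp1 and Masp2, 0.32 for Mbl2 and Masp1 and 0.21 for Mbl2 and Masp2. For Mbl1, with its low spots, it was 0.45 with Mbl2, 0.15 with Masp1 and −0.05 with Masp2. Only Masp1 and Masp2 passed after adjustment in that channel. Many other features moved with these genes too: 16.5% of 13201 candidates had a higher r with Masp1 than Mbl2 did, and 18.1% a higher one than Masp2 did.

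**Figure D4:**
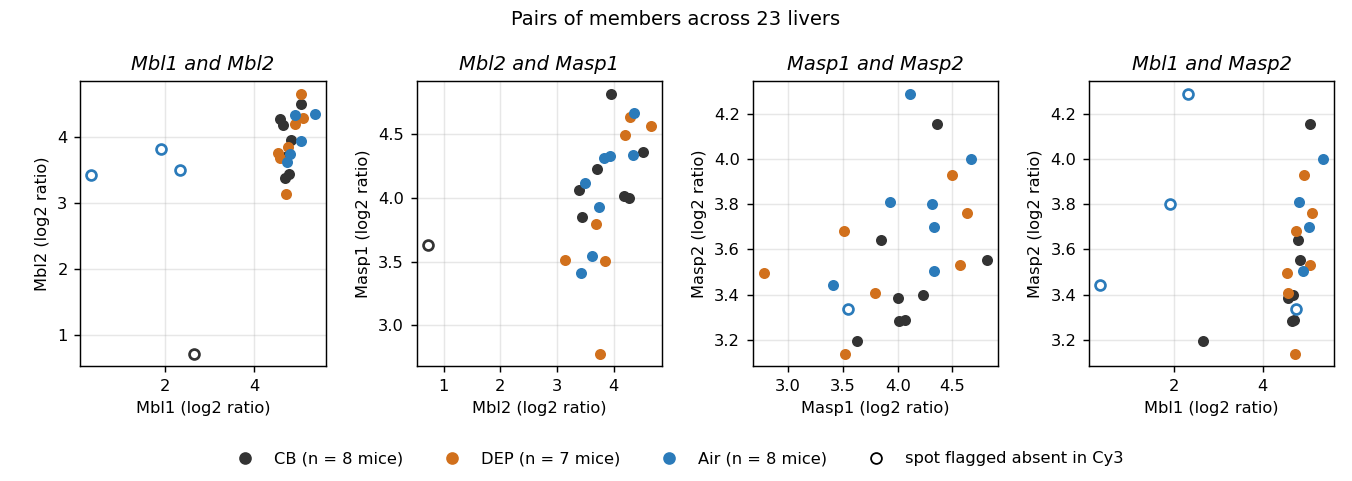
Log2 ratios of pairs of the 4 genes against each other, with 1 point per mouse in the CB (n = 8), DEP (n = 7) and Air (n = 8) groups and open points where a spot of either gene was flagged absent in Cy3. The low Mbl1 spots lie to the left of a narrow band in which Mbl1 rises with Mbl2 and Masp2. CB mouse 835436 lies at the foot of the pair of Mbl1 and Mbl2 and at the far left of the pair of Mbl2 and Masp1.

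The genes whose ratio was most like that of each of the 4 across the 23 mice were taken from 12208 other listed genes with unsaturated and mostly detected spots, by Pearson's r and with no test. For Masp1 they were Tmem135 (r = 0.89), Cpt1a, the carnitine palmitoyltransferase of fatty acid oxidation (0.87), and Colec11 (0.86), a collectin that itself binds the MASPs. For Masp2 they were Creb3l3, a transcription factor bound to the endoplasmic reticulum of hepatocytes (0.85), Itih2, a heavy chain of the plasma inter-alpha-trypsin inhibitor (0.84), and Reep6 (0.84). No spot of the genes named for Masp1 and Masp2 was flagged absent. For Mbl2 they were Ces1g, a liver carboxylesterase (0.94), Ugt2a1, a glucuronosyltransferase (0.89), and Kcnn2, a potassium channel (0.89).

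Since r over all mice follows the low spots, the genes it picked for the lectins had low values on some of the same arrays by choice. CB mouse 835436 had 0.63 for Ces1g, against 3.69 or more in the other mice, 2.62 for Ugt2a1, against 4.31 or more, and 0.60 for Kcnn2, against 3.20 or more. Over mice with no flagged spot r with Mbl2 was 0.75 for Ces1g and 0.65 for Ugt2a1, and the Kcnn2 spot was flagged absent in Cy3 on all 23 arrays. For Mbl1 they were Ugt2b37, a glucuronosyltransferase (0.77), Nlrp6, an innate immune sensor (0.75), and the olfactory receptor Olfr354 (0.73), which was flagged absent in Cy5 on 5 arrays. Air mouse 835433 had 0.70 for Ugt2b37, against 4.34 or more in the others, while Air mice 442 and 443 had 4.93 and 5.15, inside the range of the rest. Over mice with no flagged spot r with Mbl1 was 0.63, 0.33 and 0.35 for these genes.

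Of 26 symbols listed as partners of the lectin pathway 16 were on the array. For CB minus Air 5 were higher and 11 lower with a median log2 difference of −0.08, for DEP minus Air 4 and 12 with a median of −0.06, and for CB minus DEP 5 and 11 with a median of −0.09. The median over all features was 0.00 in each comparison, and 49.8%, 50% and 50.1% of all features were below 0. Limma called 0 of the 16 in each. Under an unadjusted p of 0.05 from limma were 2, 0 and 1 of the 16, beside 5.94%, 4.82% and 3.44% of all features. Counts this small are not read as a result about the partners. The 2 were C4b and Serpinc1, the gene of antithrombin, which inhibits MASPs in the presence of heparin, and the 1 was Serpinc1.

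Among the other recognition molecules, Fcna, the gene of ficolin A, averaged 2.21 ± 0.55 in the CB group, 2.35 ± 0.71 in the DEP group and 2.09 ± 0.68 in the Air group (SD, n = 8, 7 and 8). Fcnb, the gene of ficolin B of myeloid cells, lay at −0.11, −0.01 and −0.04 in these groups and was flagged absent in Cy5 on 18 arrays. The collectins Colec10 and Colec11 averaged 4.18 and 3.87 in the CB group, 3.71 and 3.69 in the DEP group and 4.11 and 4.07 in the Air group. Colec12, Sftpd and Sftpa1 were low, with group means of −1.22 to 0.86. The recognition molecules had no shared direction: 2 of 7 were higher and 5 lower in each comparison.

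The substrates of MASP-2 had lower means in the CB and DEP groups than in the Air group, without passing the test. For DEP minus Air the log2 difference was −0.11 for C4b and −0.19 for C2. C4b averaged 5.12 ± 0.25 in the CB group, 5.25 ± 0.16 in the DEP group and 5.36 ± 0.22 in the Air group (SD, n = 8, 7 and 8), with a log2 difference of −0.25 for CB minus Air (standard error 0.11, adjusted p = 0.838 from limma). Its spot was saturated on 1 array, and a near-identical neighbour, C4a, may share it. C2 averaged 3.98 ± 0.58 in the CB group, 4.11 ± 0.37 in the DEP group and 4.30 ± 0.26 in the Air group, with a log2 difference of −0.32 for CB minus Air (standard error 0.20, adjusted p = 0.888). Of the inhibitors, Serping1, the gene of the C1 inhibitor, which also inhibits MASPs, averaged 3.75, 3.84 and 3.87 in these groups. Serpinc1 averaged 4.32 ± 0.18 in the CB group, 4.67 ± 0.16 in the DEP group and 4.90 ± 0.50 in the Air group, with a log2 difference of −0.57 for CB minus Air (standard error 0.15, adjusted p = 0.621) and spots saturated on 4 arrays. CB mouse 835436 had the lowest value of all mice for C4b (4.62), C2 (3.42), Serping1 (3.19) and Serpinc1 (3.93). Its part in the lower CB means was not tested. The classical pathway genes C1qa, C1qb, C1qc, C1ra and C1s1 had 3 higher and 2 lower for CB minus Air, with a median of 0.00. C3, C4a, C4bp and A2m were not analysed here.

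Hepatocyte markers were high in every liver. The mean log2 ratio of 6 of 8 listed markers (Alb, Ttr, Apoa1, Tat, Cps1 and Ass1, of which Alb was saturated on all 23 arrays, Apoa1 on 20 and Tat and Cps1 on 8 each) was 3.95 to 4.95 in the CB group, 4.21 to 4.94 in the DEP group and 4.43 to 4.98 in the Air group. CB mouse 835436, low in both lectins, had the lowest value of all, 3.95. Air mice 442, 443 and 835433, low in Mbl1 alone, had 4.78, 4.81 and 4.87, inside the range of the Air group. In CB mouse 835436 the 16 partners of the lectin pathway averaged 2.15, the lowest of all mice too, and the part of a lower hepatocyte signal in its lectin values was not tested. The lists for other cell types overlapped between the groups: 1.37 to 2.18, 1.38 to 2.53 and 1.39 to 2.11 for Kupffer cells, 0.79 to 1.18, 0.70 to 1.44 and 0.77 to 1.12 for endothelium, and 0.83 to 1.52, 0.85 to 1.48 and 0.96 to 1.39 for stellate cells in CB, DEP and Air livers. The lists of cholangiocytes and lymphocytes lay below 0 in every group, and that of pancreatic acinar cells at 0.82 to 1.45, 0.87 to 1.64 and 0.84 to 1.45.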

How the data were processed

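The authors scanned the arrays and deposited, for every spot, the linear intensity of each channel without background subtraction, a log2 ratio that they had normalised by lowess within each array in R 2.4.1, and a flag score for absent spots in each channel. The deposited ratios of both kinds of table were identical. Here log2 ratios were computed from the intensities by loess within each array (limma 3.58.1, R 4.3.3), for which 18688 of 22575 features had a gene name. The other 3887 features were left out, since control spots among them could not be told apart, and 0 features were filtered by signal. The ratios of 3 groups of separate mice were fitted in 1 model (lmFit, eBayes) with p adjusted over all 18688 features (Benjamini-Hochberg, 0.05), in place of the MAANOVA test of the study's methods. P-values measure the spread between mice with 1 array each, which includes the spread between arrays and spots, and the number of arrays limits the precision. The fit was tested on simulated data with known changes. Correlations were tested two-sided with 100000 permutations.

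The genes, the lists of partners and markers and the comparisons were chosen with earlier results of these data known. Named are all features of the 4 genes, the 3 genes most like each of them, and the partners. The settings without absent spots, the limit of 1.5 and the shared promoter run were chosen after the values had been seen. A spot at 65535 was taken as saturated. The alternatives were the deposited ratios, median centring, Aquantile, the Cy5 signal alone, normexp with an offset of 50, a filter that kept 13669 features, the exposure round, array run or exposure day as a block, single rounds, array weights, leaving out each mouse and, with 13415 features, no absent spots, also without CB mouse 835436. Promoter sequences are from RefSeq (GRCm38.p6).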

Additional observations from a re-analysis of the deposited data

Results flagged for a closer look

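In CB mouse 835436 the log2 ratio of Mbl1 was 2.65, against 4.57 in the next lowest CB mouse, a gap that is large for a group of 8 by Dixon's test. The same mouse had the lowest Mbl2 of the CB group, 0.72 against 3.38 in the next, and the lowest Cy3 signal at the Mbl2 spot, −1.16 in log2 relative to the array median, against −0.02. The highest Masp2 of the CB group, 4.16 in CB mouse 445, stood apart from the next, 3.64. In DEP mouse 835434 the log2 Cy3 signal at the Mbl2 spot was 1.14 relative to the array median, against 0.31 in the next DEP mouse, and its Mbl2 ratio, 3.14, was the lowest of the DEP group. Such gaps are set to arise in about 1 of 20 groups by chance. In the log2 ratios they were found in 10.6% of all features in the CB group, 7.59% in the DEP group and 9.18% in the Air group. No such share was taken for the Cy3 signals. The 3 low Mbl1 values of the Air group stood too close to each other to meet this rule.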

How the results depend on the processing

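None of the 4 genes passed in limma as reported, Masp2 passed with median centring, and the number of arrays and dim Cy3 spots limit the precision. Apart from leaving out mice, 217 values kept their direction and side of the threshold, 24 changed direction, 1 of them passing in the alternative, 7 others passed only in the alternative and 4 counts moved. The 217 include the values with Aquantile, which leaves log2 ratios unchanged and so had to give the same result. They also include those with the filter on dim features, which could not change the differences of the 4 genes. With median centring CB minus Air was −0.57 for Masp2 (passed), −0.27 for Masp1, and called 285 features, and DEP minus Air was −0.031 for Mbl2. With the Cy5 signal alone CB minus Air was −0.17 for Masp1 and 0.023 for Masp2, and DEP minus Air 0.16 for Masp2. Masp1 in CB minus Air was −0.012 with the round and −0.081 with the array run as a block, −0.054 in round 2 and −0.035 in round 3. In round 2 DEP minus Air was −0.0100 for Mbl2 and 0.15 for Masp2. In round 3, with 1 CB mouse, it was 0.46 for Masp1, CB minus DEP was −0.49 for Masp1 and −3.23 for Mbl2, past the threshold but from a lone CB mouse with a spot flagged absent and so no support for a difference, and 50 and 100 features were called for CB minus Air and CB minus DEP. Array weights called 1 for CB minus Air. Without absent spots CB minus Air was −0.48 for Mbl1 and 0.080 for Mbl2, and DEP minus Air −0.17 for Mbl1. Without CB mouse 835436 as well these were −0.22, 0.080 and −0.17. The cause was not tested.

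Leaving out each mouse, CB minus Air ranged from 0.33 to 1.07 for Mbl1, −0.46 to 0.080 for Mbl2 (above 0 without CB mouse 835436), −0.059 to 0.12 for Masp1 (below 0 without CB mouse 59, Air mouse 54 or Air mouse 835433) and −0.34 to −0.17 for Masp2. DEP minus Air ranged from 0.65 to 1.36, −0.022 to 0.23 (below 0 without DEP mouse 51), −0.30 to 0.0043 (above 0 without DEP mouse 55) and −0.23 to −0.09 for these genes, and CB minus DEP from −0.40 to −0.05, −0.56 to −0.02, 0.04 to 0.34 and −0.17 to −0.02. The features called numbered 0 to 1 for CB minus Air, 1 without CB mouse 59 or Air mouse 442. The r of Mbl1 and Masp2, −0.0020 over all mice, was 0.024 with deposited ratios, 0.13 in deviations from group means, 0.0069 from round and group means, 0.32 in round 3 and 0.57 without absent spots. It passed there, as did Mbl1 and Mbl2 (0.57) and Mbl2 and Masp1 (0.59). In deviations from round and group means Mbl2 and Masp1 (0.70) and Masp1 and Masp2 (0.63) passed, and with Cy5 alone Masp1 and Masp2 (0.56). The other pairs did not pass with Cy5 alone. No pair passed with deposited ratios, where Mbl2 and Masp1 had 0.43, Mbl2 and Masp2 0.32 and Masp1 and Masp2 0.27. No paired analysis was possible because the numbers in the labels are not shared between groups.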
